A study of Mus musculus with 4 samples.

Results

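Genes for the factors that transcribe and process histone messenger RNA were followed in CCE mouse embryonic stem cells: Slbp, Npat, Casp8ap2, Lsm10, Lsm11, Zfp473 and Eri1. The members were chosen by gene symbol, with earlier results of these data known. All 7 of the 7 were found among the 32592 genes of the table, and all 7 passed the filter on low counts that left 14890 genes. CCE cells are a feeder-free line of 129/Sv strain, grown here with leukemia inhibitory factor. Infection was with shRNAs, short hairpin RNAs that direct the degradation of a chosen mRNA, either against eIF4A2 (sheIF4A2-2 and sheIF4A2-3; 2 libraries labelled knockdown) or as controls (shLuc and shEV; 2 libraries labelled control). All groups went through 3 days of selection in 1 µg/mL puromycin and were collected on day 4.5. Which library received which shRNA is not in the labels. Nor do they name separate cultures, so the p-values reflect the spread between these 4 libraries, and that spread may be technical.

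Most messenger RNAs end in a poly(A) tail, but the mRNAs of replication-dependent histones, which package new DNA in S phase, end in a conserved stem-loop. NPAT activates histone gene transcription at the histone locus body once cyclin E and CDK2 phosphorylate it. The stem-loop is bound by SLBP and trimmed by the exonuclease ERI1, while the U7 small nuclear ribonucleoprotein, which carries LSM10 and LSM11 in place of spliceosomal Sm proteins, base-pairs downstream and, with FLASH (the product of Casp8ap2) and ZFP100 (the product of Zfp473), brings in the cleavage complex. SLBP stays on the finished mRNA through export, translation and decay.

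The stem-loop is the site on which Slbp and Eri1 products meet, so it is shown for H2ax, the most abundant stem-loop histone gene in these libraries, and for the 3 replication-dependent histone genes with the smallest limma p whose transcript held a match. Each is 26 bases of a GENCODE M21 transcript, 5′ to 3′, with the 16 bases of the stem-loop in capitals and 5 bases on either side.
H2ax: acaaaGGCCCTTTTAAGGGCCaccac
H2bc8: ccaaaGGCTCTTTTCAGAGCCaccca
H4c2: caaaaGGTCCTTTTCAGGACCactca
H1f3: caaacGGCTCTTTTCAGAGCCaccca
The search on the transcript strand asked for 16 bases that open with GG and close with CC, with the outer 6 bases on each side complementary around a 4-base loop, and with T and A as the innermost pair. A match was found in transcripts of 23 of the 32 replication-dependent histone genes tested and in 512 of 21919 other protein-coding genes (2.34%). The other genes are all those outside the 32, H2ax among them, and histone genes too low to test were not left out. No member's own transcripts held it. A match was taken at any position, so a match in another gene need not lie at the end of its mRNA. An annotated transcript that ends before its stem-loop cannot match, so a missing match does not show that a gene lacks the stem-loop. The H2ax transcript went on for 822 bases past the stem-loop, that of H1f3 for 4884 and those of H2bc8 and H4c2 for 155 and 28. These lengths come from the annotation, and whether the transcripts carry a poly(A) tail was not examined. A poly(A) library captures polyadenylated forms, and reads from such forms cannot be told apart here from carried-over stem-loop mRNA.

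The regions before the start sites were compared because Slbp and Casp8ap2 were both lower in the knockdown-labelled libraries and Npat was not. RefSeq start sites (GRCm38.p6) gave a window for 6 of the 7 members, and none was matched for Eri1. By the GENCODE annotation, the Casp8ap2 window reaches into an exon of Casp8ap2 itself, and the Slbp window holds exon bases of another gene, Gm10459. The 250 bases before the start are printed 5′ to 3′ along the gene, with E2F-type sites (TTTCGCGC or TTTGGCGC) and CCAAT boxes, searched on both strands, in capitals.
Slbp (chr5:33652575-33652824, minus strand): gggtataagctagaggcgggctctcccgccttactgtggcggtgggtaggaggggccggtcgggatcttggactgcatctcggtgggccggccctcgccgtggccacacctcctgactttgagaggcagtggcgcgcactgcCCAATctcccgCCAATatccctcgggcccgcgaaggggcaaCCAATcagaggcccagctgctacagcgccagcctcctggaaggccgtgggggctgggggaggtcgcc
Casp8ap2 (chr4:32615220-32615469, plus strand): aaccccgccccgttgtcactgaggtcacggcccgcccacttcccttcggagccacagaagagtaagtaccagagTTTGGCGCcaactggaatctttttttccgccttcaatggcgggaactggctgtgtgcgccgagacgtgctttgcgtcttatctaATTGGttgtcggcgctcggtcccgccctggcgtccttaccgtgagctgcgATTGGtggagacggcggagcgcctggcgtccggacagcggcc
Npat (chr9:53536797-53537046, plus strand): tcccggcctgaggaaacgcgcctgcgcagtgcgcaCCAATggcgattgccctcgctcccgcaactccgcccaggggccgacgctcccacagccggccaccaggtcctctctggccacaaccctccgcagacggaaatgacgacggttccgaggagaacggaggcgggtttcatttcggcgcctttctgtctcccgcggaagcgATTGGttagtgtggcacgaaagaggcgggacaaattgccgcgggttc
Slbp had 3 CCAAT boxes, at -108, -97 and -67 from the start, and Casp8ap2 and Npat had 2 each. Lsm10 had 1, Lsm11 had 0, and the 3 windows of Zfp473 had 0, 0 and 1. At least 1 CCAAT was found in 33.85% of all 32851 RefSeq windows of this length, and how many held more than 1 was not counted. Casp8ap2 alone among the 6 members held an exact match to either E2F-type sequence searched, TTTGGCGC at -176, a motif found in 0.417% of windows. TTTCGCGC, found in 0.256%, was in no member's window. Other forms of the E2F site were not searched, so a window without a match may still hold one. These matches are a description of letters and not of binding.

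The targeted gene was checked first. Eif4a2, an RNA helicase of translation initiation, measured 530.6 and 379 normalized counts, which are CPM scaled to an effective library size, in the control-labelled libraries and 752.5 and 814 in the knockdown-labelled libraries. The labelled target was thus the higher of the groups where a knockdown would have it lower (log2 change 0.80, SE 0.15, limma adjusted p = 0.014), and each direction below follows the labels, knockdown against control. Whether the labels are exchanged was not tested; if they were, every direction given here would turn. The libraries held 4604200 reads (control 2) to 13681765 reads (control 1), so the values of control 2 are the least precise. All 10 embryonic stem cell markers examined were expressed, at a summed 9197 to 12599 normalized counts; 4 of them fell and 0 rose in limma, with 0 higher at an unadjusted p below 0.05 and 0 by edgeR or DESeq2. Over all genes tested, 12.4% fell and 10.5% rose in limma. Of 10 fibroblast markers 6 could be tested, of which 3 rose. The summed level of the 10 was 287.7 and 313.7 in the knockdown-labelled libraries against 165.8 and 121.3 in the control-labelled libraries. The 3 were Cald1, an actin-binding protein gene that smooth muscle also expresses (243.9 and 268.8 normalized counts against 136.5 and 97.8), Col1a1 (8.52 and 9.19 against 2.43 and 3.85) and Pdgfrb (22 and 23 against 13.2 and 9.73). Of the 4 that could not be tested, Dcn and Lum had 0 reads in all 4 libraries, Col3a1 had 6 and 6 reads against 0 and 1, and Postn had 0 and 1 against 1 and 0. Their part in the results below was not tested.

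Slbp and Eri1 fell about as far as each other, Casp8ap2 fell less, and Npat, Lsm10, Lsm11 and Zfp473 did not pass the test. In all, 3 of 7 members passed limma at an adjusted p below 0.05, against 23.0% of all genes tested, and the 3 were lower, against 12.4% of all genes. By the authors' deposited table the same 3 members had an adjusted p below 0.05, against 24.2% of the genes tested here. The median log2 change of the 7 was 0.0002, against -0.01 over all genes. For 5 of the 7 members the groups did not overlap, against 66.8% of all genes tested, so that share of the members is close to the background.

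**Figure D1:**
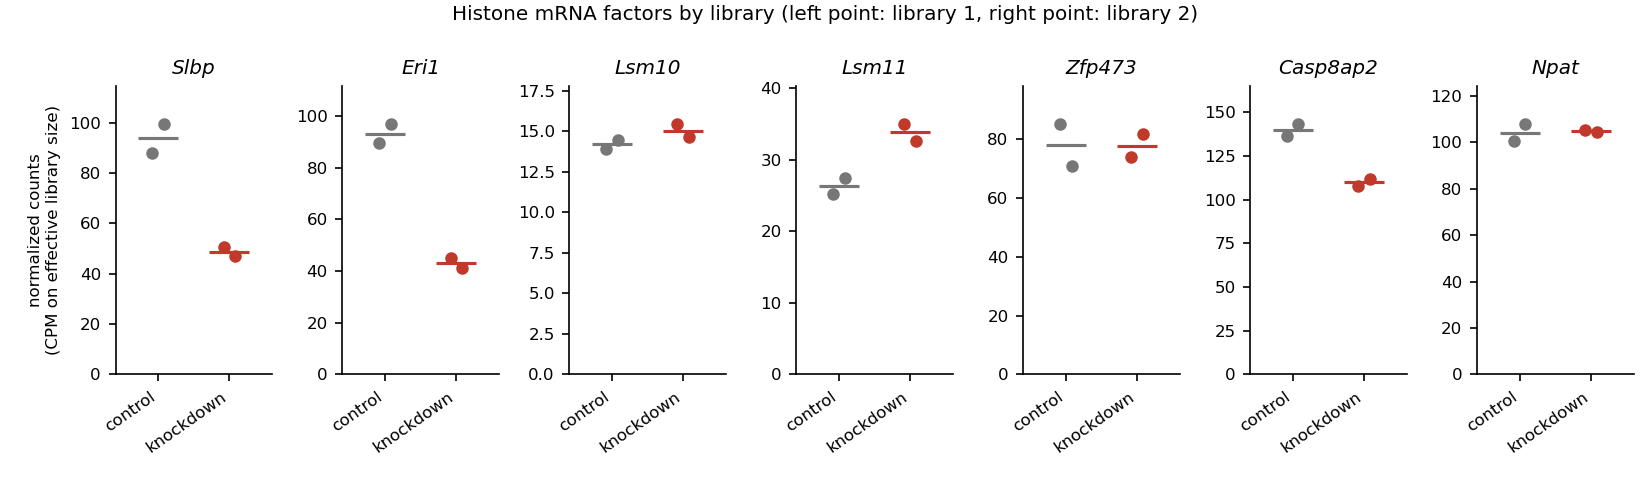
Normalized counts of each member (vertical axes, each starting at 0) in the 2 control-labelled and the 2 knockdown-labelled libraries; points are libraries and bars are group means. Slbp and Eri1 sit between 41.3 and 50.6 in the knockdown-labelled libraries and between 88 and 99.6 in the control-labelled libraries.

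Of the factors that act on the stem-loop itself, Slbp encodes the stem-loop binding protein. The gene (ENSMUSG00000004642) lies on chromosome 5, 33634952 to 33652574 on the minus strand of GRCm38. Slbp stood at 50.6 and 47.1 normalized counts in the knockdown-labelled libraries and at 88 and 99.6 in those labelled control, from 570, 605, 1196 and 440 reads. Both knockdown values lay well under both control values. Slbp fell 1.9-fold, from 93.8 ± 8.16 to 48.9 ± 2.47 (SD, n = 2 each; log2 change -0.93, SE 0.10, limma adjusted p = 0.00387). The value for Slbp in the authors' deposited table was the same to 2 decimals, a log2 fold change of -0.93. Gm10459, a gene on the opposite strand whose type the annotation leaves undecided, shares 474 exonic bases with Slbp in the GRCm38 annotation, and the strand setting of the counting is not given in the sources used here.

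Eri1 encodes the exonuclease that binds the stem-loop together with SLBP, trims the histone mRNA end and takes part in its decay. The gene (ENSMUSG00000031527) lies on chromosome 8, 35465253 to 35496196 on the minus strand of GRCm38. Eri1 was at 45.1 and 41.3 normalized counts in the knockdown-labelled libraries and at 89.4 and 96.8 in those labelled control. The controls were again both higher than both others. Eri1 fell 2.13-fold, from 93.1 ± 5.25 to 43.2 ± 2.71 (SD, n = 2 each; log2 change -1.09, SE 0.10, limma adjusted p = 0.00263), the largest change among the members. The ratio of Eri1 to Slbp normalized counts within a library was 0.891 and 0.876 in the knockdown-labelled libraries and 1.02 and 0.973 in the control-labelled libraries. That ratio differed far less than either gene did, and an exact two-sided permutation test of it gave p = 0.333, the smallest that 2 against 2 libraries allow. The related exonuclease genes Eri2 and Eri3 did not pass (log2 change -0.17, limma adjusted p = 0.387, and 0.26, limma adjusted p = 0.289).

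Of the U7 particle, Lsm10 encodes an Sm-like ring protein found in U7 and not in spliceosomal particles. The gene (ENSMUSG00000050188) spans 126096623 to 126098584 on the plus strand of chromosome 4. Lsm10 was at 15.4 and 14.6 normalized counts in the knockdown-labelled libraries and at 13.9 and 14.5 in those labelled control. These 4 values lie close together, from 174, 188, 189 and 64 reads, and no difference was detectable (log2 change 0.08, 95% interval -0.26 to 0.42, limma adjusted p = 0.726).

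Lsm11 encodes the other U7-specific ring protein, whose long amino-terminal part binds FLASH. It lies on chromosome 11, 45928269 to 45944935 on the minus strand (ENSMUSG00000044847). Lsm11 was at 35 and 32.6 normalized counts in the knockdown-labelled libraries and at 25.2 and 27.4 in those labelled control. Although the groups did not overlap, the difference did not pass (33.8 ± 1.66 against 26.3 ± 1.51, SD, n = 2 each; log2 change 0.35, 95% interval 0.07 to 0.63, limma adjusted p = 0.072). It did pass with scaling by library size only (log2 change 0.47, limma adjusted p = 0.0332) and with upper-quartile scaling (log2 change 0.42, limma adjusted p = 0.0455). It did not pass with edgeR's quasi-likelihood test (adjusted p = 0.0527) or with DESeq2 (adjusted p = 0.199). Without each library in turn the log2 change was 0.29 to 0.41. The ratio of Lsm11 to Slbp normalized counts was 0.691 and 0.693 in the knockdown-labelled libraries and 0.287 and 0.275 in those labelled control. The row of the U7 RNA itself, Rnu7, had 0 reads in all 4 libraries.

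The ring of U7 is completed by 5 proteins that it shares with the spliceosome, Snrpb, Snrpd3, Snrpe, Snrpf and Snrpg. None of the 5 passed in limma, at an unadjusted p below 0.05, in edgeR or in DESeq2; the smallest p was that of Snrpe (log2 change -0.23, limma adjusted p = 0.153), and that of Snrpd3 was next (-0.20, limma adjusted p = 0.155). Snrpd1 and Snrpd2, whose proteins LSM10 and LSM11 replace, did not pass either (-0.28 and -0.02, limma adjusted p = 0.142 and 0.919).

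Zfp473 encodes the zinc finger protein ZFP100, which bridges the SLBP-bound stem-loop and the U7 particle. The gene (ENSMUSG00000048012) lies on chromosome 7, 44731480 to 44751050 on the minus strand. Zfp473 was at 73.9 and 81.6 normalized counts in the knockdown-labelled libraries and at 85.1 and 70.8 in those labelled control. The 2 controls lay on either side of the other libraries, and no difference was detectable (77.7 ± 5.47 against 78 ± 10.1, SD, n = 2 each; 95% interval of the log2 change -0.27 to 0.27, limma adjusted p = 0.999). It shares 205 exonic bases with Vrk3 on the opposite strand, whose reads cannot be told apart without strand.

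Casp8ap2 encodes FLASH, a component of the histone locus body that binds LSM11 and recruits the cleavage complex. The gene (ENSMUSG00000028282) lies on chromosome 4, 32615451 to 32653265 on the plus strand. Casp8ap2 was at 107.8 and 112 normalized counts in the knockdown-labelled libraries and at 136.2 and 143.2 in those labelled control. Each knockdown value was under each control value, and the gene fell 1.27-fold, from 139.7 ± 5.01 to 109.9 ± 2.96 (SD, n = 2 each; log2 change -0.34, SE 0.08, limma adjusted p = 0.0273). Casp8ap2 did not pass with DESeq2 on the recovered reads (adjusted p = 0.0797), with upper-quartile scaling, with scaling by library size only (limma adjusted p = 0.0864) or without a variance trend (limma adjusted p = 0.0914). Without knockdown 1 or knockdown 2 it did not pass either (limma adjusted p = 0.269 and 0.234).

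Npat encodes the coactivator of histone gene transcription. The gene (ENSMUSG00000033054) lies on chromosome 9, 53537047 to 53574342 on the plus strand. Npat was at 105.4 and 104.5 normalized counts in the knockdown-labelled libraries and at 100.5 and 107.9 in those labelled control. The knockdown values fell between the 2 control values (104.9 ± 0.628 against 104.2 ± 5.29, SD, n = 2 each). No difference was detectable (log2 change 0.01, 95% interval -0.19 to 0.21, limma adjusted p = 0.937). The interval leaves out a change of the size seen for Slbp or Eri1.

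With Npat as an internal reference, which removes the scaling between libraries, the ratio of Slbp to Npat normalized counts was 0.48 and 0.451 in the knockdown-labelled libraries against 0.876 and 0.922 in those labelled control. For Eri1 the ratio to Npat was 0.428 and 0.395 against 0.89 and 0.897, and for Casp8ap2 1.02 and 1.07 against 1.36 and 1.33. Each of these 3 ratios was lower in both knockdown-labelled libraries (exact two-sided permutation p = 0.333 each, the smallest the design allows). A ratio shows unequal change of a pair of genes and not which of them changed.

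**Figure D2:**
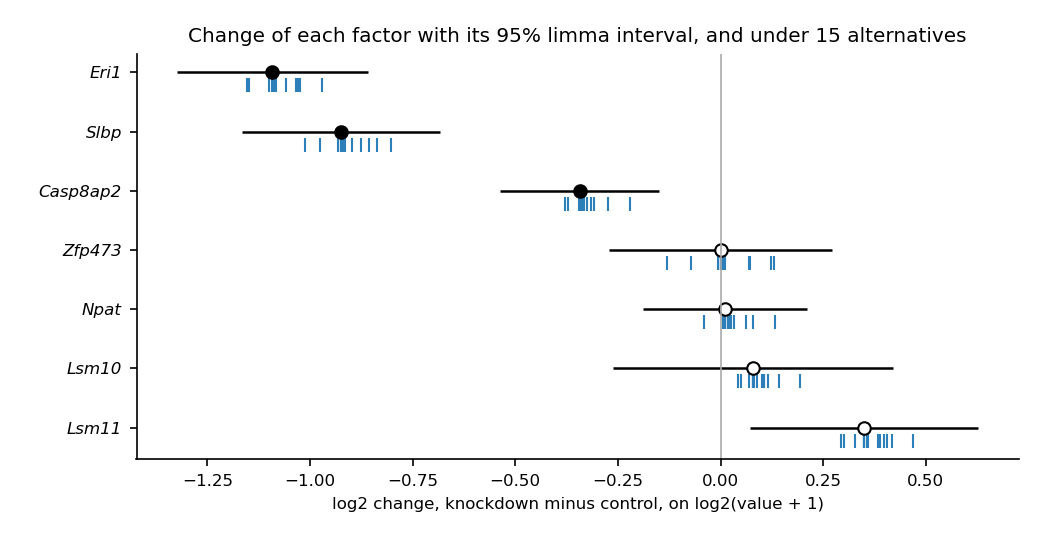
Log2 change of each member (horizontal axis, knockdown minus control, on log2 of normalized counts plus 1) with its 95% limma interval; filled points passed at an adjusted p below 0.05, open points did not, and blue ticks are the values under 15 alternative analyses. Eri1 and Slbp lie at -1.09 and -0.93 with every tick below -0.8, while the ticks of Zfp473 and Npat fall on both sides of 0.

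Per kilobase of merged exons, the members stood at 4.08 to 20.5 normalized counts in the control-labelled libraries. Casp8ap2 was highest there (20.5 on average), followed by Npat (16.7), Slbp (15.4), Lsm10 (15.1), Eri1 (10.5), Zfp473 (7.77) and Lsm11 (4.08). The per-kilobase ranges of Npat and Slbp overlapped, as did those of Slbp and Lsm10, so these neighbours did not differ beyond their spread. In the knockdown-labelled libraries the order was Npat (16.8), Casp8ap2 (16.1), Lsm10 (16), Slbp (8.04), Zfp473 (7.75), Lsm11 (5.24) and Eri1 (4.87). Here the ranges of Casp8ap2 and Lsm10, of Slbp and Zfp473, and of Lsm11 and Eri1 overlapped. By this measure Slbp was level with Npat and Lsm10 in the control-labelled libraries and level with Zfp473 in the knockdown-labelled libraries. Eri1 went from above Zfp473 to below it. Merged exons run from 943 bp (Lsm10) to 10037 bp (Zfp473) and may be longer than the mRNA made. The order between genes therefore rests on the annotation.

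Across the 4 libraries, the centred log2 profiles of Slbp and Eri1 lay 0.0864 apart (root mean square distance), against 0.47 between Slbp and Npat. Neighbours were sought among tested genes whose average log2 CPM reached 3 and whose symbol was no clone or prediction name. Among these, the profiles nearest to that of Slbp were those of Ccdc112 (distance 0.0212), Cpeb3 (0.0297) and Mest (0.0311). Cpeb3 encodes a cytoplasmic polyadenylation element binding protein, and Mest is an imprinted gene. Nearest to Npat were Maf1 (0.00621), a repressor of RNA polymerase III, Sppl3 (0.00876) and Srrm2 (0.00888), a splicing cofactor. With 4 libraries such distances describe these samples only.

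The base composition of the transcripts moved with the change in these libraries. With the tested genes split into 5 equal bins by GC content, the median log2 change was -0.14 in bin 1, the lowest in GC, and 0.17 in bin 5. Eri1 (43.2% GC), Casp8ap2 (41%) and Npat (40.3%) were in bin 1 and Slbp (44.4%) and Zfp473 (47%) in bin 2, whose median was -0.08, while Lsm11 (50.8%) and Lsm10 (54.9%) were in bins 3 and 4. The part of base composition in the members' changes was not tested.

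**Figure D3:**
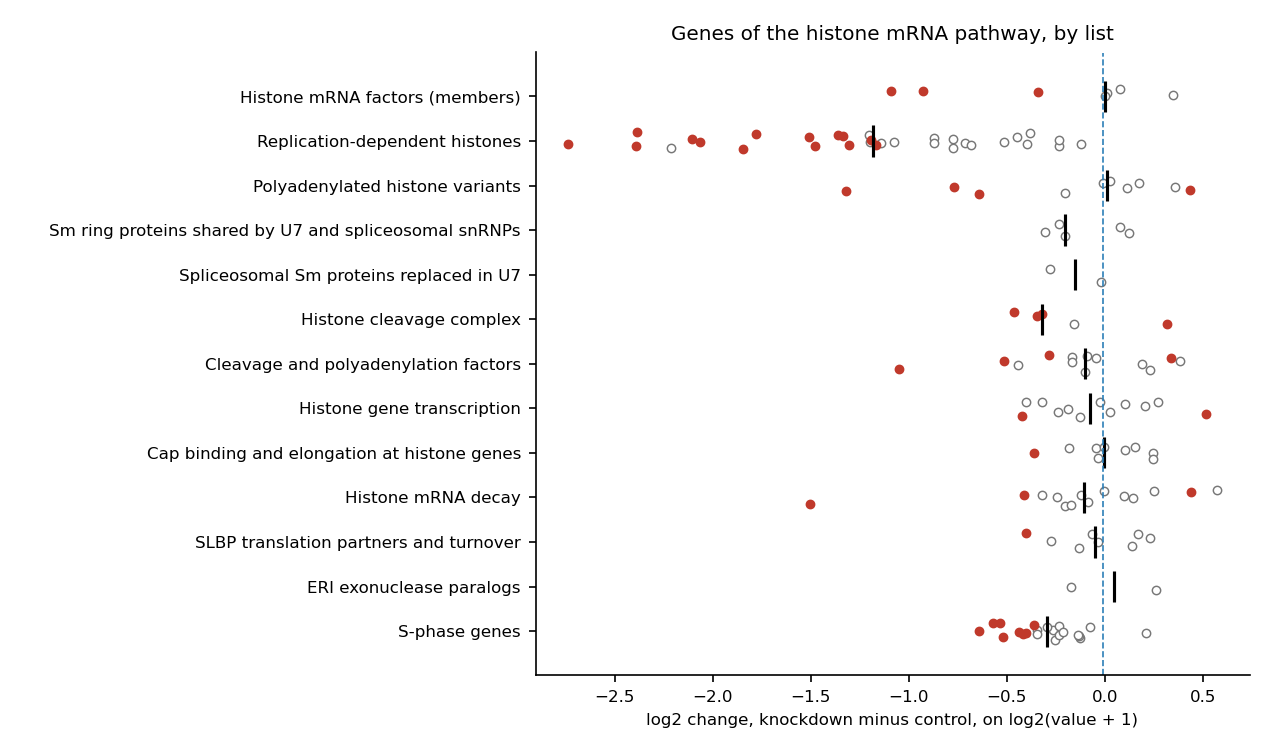
Log2 change (horizontal axis, knockdown minus control, on log2 of normalized counts plus 1) of each tested gene of the lists; red points passed at a limma adjusted p below 0.05, open points did not, black bars are list medians and the dashed line is the median of all genes (-0.01). Dcp2 at -1.51 and Papola at -1.05 stand apart from the other genes of their lists.

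Among the partners of the members, genes of the histone cleavage complex moved both ways. Of 5 tested, 3 fell and 1 rose (median log2 change -0.32). Over all genes tested, 12.4% fell and 10.5% rose in limma, the shares to set beside each count of the lists below. Cpsf3, the endonuclease itself, fell 1.25-fold (log2 change -0.32, limma adjusted p = 0.0465), its partner Cpsf2 1.27-fold (limma adjusted p = 0.0242) and Cstf2t 1.38-fold (limma adjusted p = 0.0118). Sympk, the scaffold symplekin, rose 1.25-fold, from 175 and 166.8 normalized counts in the control-labelled libraries to 212.3 and 213.9. The Cpsf3 call was lost in 9 of the 15 alternatives. The calls of all 4 were lost without a variance trend, without knockdown 1 and without knockdown 2, and that of Cpsf2 also with scaling by library size only and with DESeq2.

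Of 13 further factors of ordinary cleavage and polyadenylation, 3 fell and 1 rose, against 12.4% lower and 10.5% higher over all genes tested. Papola, the poly(A) polymerase, fell 2.07-fold, from 363 and 377.7 normalized counts to 183.5 and 173.1 (log2 change -1.05, SE 0.08, limma adjusted p = 0.00256), about as far as Slbp and Eri1. Fip1l1 fell 1.43-fold and Cpsf6 1.22-fold, and Cpsf1 rose 1.27-fold. The call of Cpsf6 was lost in 8 of the 15 alternatives, and those of Fip1l1 and Cpsf1 without a variance trend and without knockdown 2, that of Cpsf1 also without knockdown 1.

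Of 12 genes of histone gene transcription, 1 rose and 1 fell (median log2 change -0.08). These counts are near the shares over all genes tested (10.5% higher and 12.4% lower). E2f1, a transcription factor of S-phase genes, rose 1.43-fold, from 73.2 and 66.3 normalized counts to 98.7 and 101.6 (limma adjusted p = 0.0118). Cdk2, the kinase that phosphorylates NPAT, fell 1.34-fold (limma adjusted p = 0.0164). Both calls were lost without knockdown 1 and without knockdown 2, and that of Cdk2 also with scaling by library size only and without a variance trend. Of 9 genes of cap binding and elongation at histone genes, Nelfe, a subunit of the pausing factor NELF, fell 1.28-fold (limma adjusted p = 0.0434), a call lost in 7 of the 15 alternatives, and the other 8 did not pass.

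In histone mRNA decay, 14 of 16 genes could be tested, of which 2 fell and 1 rose. These counts are near the shares over all genes tested (12.4% lower and 10.5% higher). Dcp2, the catalytic subunit of the decapping enzyme, was at 139.6 and 117.7 normalized counts in the knockdown-labelled libraries and 342.7 and 390.8 in those labelled control, a 2.84-fold fall (log2 change -1.51, SE 0.11, limma adjusted p = 0.00256). Smg1, a kinase of UPF1, fell 1.33-fold, and Tut4, a terminal uridylyltransferase, rose 1.36-fold; both of these calls were lost without a variance trend, without knockdown 1 and without knockdown 2. Upf1, the helicase that SLBP recruits when replication stops, and Xrn1 did not pass; these genes were named after their values were seen (log2 change 0.10 and -0.24, limma adjusted p = 0.499 and 0.22). Of 8 genes of SLBP translation and turnover only Eif4g1, a scaffold of cap-dependent translation, passed; it fell 1.32-fold (limma adjusted p = 0.0452), a call lost in 7 of the 15 alternatives.

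The replication-dependent histone genes encode the substrates of the pathway. Of 54 replication-dependent histone genes in the table, 32 had enough reads to be tested. Of these 32, 14 fell, 0 rose and 18 did not pass in limma, with a median log2 change of -1.18. Over all genes tested, 12.4% were lower and 10.5% higher in limma. At an unadjusted p below 0.05, 22 were lower and 0 higher; edgeR called 17 lower and DESeq2 16, and neither called any higher. H2bc8 was at 0.621 and 0.701 normalized counts in the knockdown-labelled libraries and at 4.05 and 8.6 in those labelled control, H1f5 at 1.78 and 1.87 against 6.33 and 11.8, H4c2 at 1.42 and 1.09 against 5.23 and 14, and H1f3 at 3.55 and 3.35 against 7.95 and 13.6. In each the controls were both higher, and control 2 was the higher of the 2. Over all 54 genes the summed level was 81.3 and 81.6 in the knockdown-labelled libraries, 137 in control 1 and 338.8 in control 2. Control 2 thus held 2.47 times the histone reads of control 1 at the same scaling, whereas Slbp and Eri1 differed little between the controls. Without control 1 the median log2 change was -1.78, and without control 2 it was -0.69. The median was -1.10 without knockdown 1 and -1.20 without knockdown 2. Fewer genes were called lower without a variance trend (5), with no filter on low counts (10), with scaling by library size only (12), with a pseudocount of 3 (12) and with upper-quartile scaling (13). In knockdown 1 and knockdown 2, 1 read was worth 0.0888 and 0.0779 normalized counts, so the values of H2bc8 there rest on few reads.

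**Figure D4:**
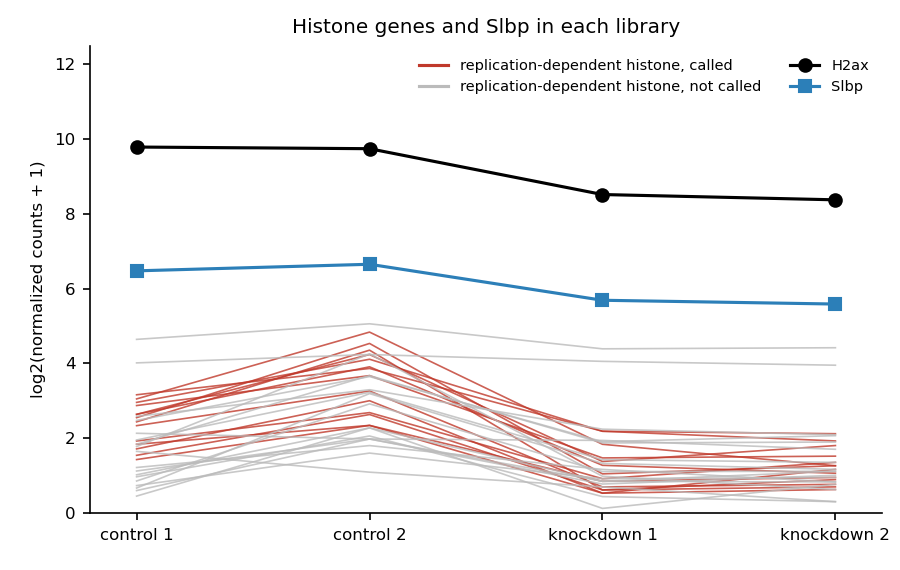
Log2 of normalized counts plus 1 (vertical axis) in each library for 32 replication-dependent histone genes, H2ax and Slbp; each line is a gene. Most histone lines peak in control 2, whereas H2ax and Slbp are level between the controls and lower in both knockdown-labelled libraries.

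Among 10 histone variant genes with polyadenylated mRNA, H2ax, the variant that marks DNA breaks and has both a stem-loop and a poly(A) form, fell furthest. H2ax measured 365.3 and 331.1 normalized counts in the knockdown-labelled libraries and at 882.5 and 855.8 in those labelled control (2.49-fold, log2 change -1.32, SE 0.09, limma adjusted p = 0.00256). H3f3b and H1f10 also fell, 1.56-fold and 1.71-fold, and Macroh2a1 rose 1.35-fold. Both the H3f3b and the Macroh2a1 calls were lost without a variance trend, and that of Macroh2a1 also without knockdown 1 and without knockdown 2. The other 6 did not pass. Over all genes tested, 12.4% were lower and 10.5% higher in limma. The ratio of Slbp to H2ax normalized counts was 0.139 and 0.142 against 0.1 and 0.116, so the pair differed less between groups than either gene.

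Of 21 S-phase genes, whose transcripts mark cells in DNA replication, 8 fell, 0 rose and 13 did not pass in limma (median log2 change -0.29, against -0.01 over all genes). The shares over all genes tested were 12.4% lower and 10.5% higher. At an unadjusted p below 0.05, 14 were lower and 0 higher; edgeR called 8 lower and DESeq2 6, and neither called any higher. Mcm6 and Mcm3, of the replicative helicase, fell 1.56-fold and 1.49-fold, and Pola1, of DNA polymerase alpha, fell 1.43-fold, with limma adjusted p between 0.00708 and 0.00995. Their fold changes were smaller than those of Slbp and Eri1. All 8 calls were lost without knockdown 2. The genes called lower numbered 4 with scaling by library size only and 3 without a variance trend. The median log2 change was -0.32 without knockdown 1, -0.25 without knockdown 2, -0.35 without control 1 and -0.28 without control 2. In bulk RNA, fewer cells in S phase and less RNA per cell cannot be told apart, and the part of S-phase content in the changes of the members was not tested.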

How the data were processed

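Poly(A) RNA of each sample (1 µg of total RNA as input) was read as single ends of 100 bp, per the labels' protocols. The submitters' processing notes name build mm9 and 4 tools, in no stated order: edgeR 3.26.8, HTSeq 0.11.2, Bowtie2 2.3.4.3 and SAMtools 1.9. The deposited signal per sample was read as CPM on an effective library size from its values. Of these, 100% are whole multiples of the worth of 1 read within 0.001, which shows rescaled counts but not which scaling. The libraries sum to between 935177 (knockdown 2) and 1041857 (control 2). Per the file headers, the authors' comparison holds log2 values (a fold change and a mean CPM), a likelihood ratio as a score, and p-values.

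limma 3.58.1 (R 4.3.3) with a variance trend was applied to log2 of the deposited signal plus 1, so changes of low genes are understated, over the 14890 genes that passed edgeR 4.0.16's filterByExpr on the recovered reads. Tests were two-sided, with Benjamini-Hochberg adjustment over all genes. The script was tested on simulated data with the same spread setting for all genes and both groups. The real control libraries differed more from each other than the knockdown libraries did, so that test does not give the error rate here. Intervals cover these libraries only, and PCR reads are not independent molecules. Alternatives were 3 scalings, edgeR's quasi-likelihood test, DESeq2 1.42.0, pseudocounts 0.5 and 3, no filter, no variance trend, robust moderation, a replicate block and leaving out each library.

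The members and lists were chosen with earlier results of these data known. Named genes are the members, Eif4a2, up to 4 called genes per list with the smallest p (or up to 2 where none was called) and the 3 nearest profiles to Slbp and Npat; stem cell markers that the rule takes are given as counts, and 1 gene that it takes is not reported here. Coordinates, lengths and GC content are from GENCODE M21 (GRCm38), matched by gene ID for 14890 of 14890 genes, and none was converted from mm9. Replicates were not duplicates: the chi-square of reads per degree of freedom was 2 between the knockdown libraries and 13.3 between the control libraries.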

Additional observations from a re-analysis of the deposited data

How the results depend on the processing

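Slbp and Eri1 kept their direction and passed in all 15 alternatives (log2 change -1.01 to -0.80 and -1.15 to -0.97). Casp8ap2 kept its direction but did not pass with upper-quartile scaling (-0.27), library size only (-0.22), DESeq2 (-0.33) or no variance trend (-0.34); without each library in turn it ranged from -0.38 to -0.31. Lsm11 passed with upper-quartile scaling (0.42) and library size only (0.47), and 1 member was then called higher in each; without each library in turn Lsm11 ranged from 0.29 to 0.41, and the members called higher from 0 to 1. The change of Zfp473, near 0, turned sign with edgeR's quasi-likelihood test (-0.0062) and ranged from -0.13 to 0.13 without each library, and that of Npat from -0.040 to 0.062. Eif4a2 did not pass without a variance trend (0.80). DESeq2 called 2219 genes, 967 of them higher, and no variance trend 1932, 864 of them lower; library size only called 996 lower and moved the median of all genes by 0.11 on the log2 scale, with 2152 of its 3148 calls higher against 1567 of 3418. Without each library in turn, 653 to 7724 genes were called, 259 to 3784 higher and 394 to 3940 lower; these fits take their spread from fewer libraries. Histone genes called numbered 5 with no variance trend and 9 to 29 without each library; S-phase genes called numbered 4 with library size only, 3 with no variance trend and 0 to 19 without each library. Replicate numbers are shared between the groups, but no label says that they pair samples, and same-numbered deviations correlated by 0.036; with the replicate block 4632 genes and 23 histone genes were called, and the block changed no member's call. Control 2 had the fewest reads and 2.47 times the summed histone level of control 1, and why the 2 controls differed was not tested.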
